A study of Homo sapiens with 13 samples.

Results

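Ribosomes are assembled in the nucleolus, and 45 genes whose proteins carry out that work were followed through the RNA-seq profiles of hFOB 1.19 osteoblasts, an immortalized human fetal line of the cells that form bone. The genes were chosen by name as a list of nucleolar factors, with earlier results of these data known. All 45 were matched by Ensembl identifier among the 43836 genes of the count table, and all 45 passed the filter on low counts that left 17092 genes for testing. The list fell into 7 roles: 3 box C/D snoRNP proteins, 4 box H/ACA snoRNP proteins, 4 nucleolar chaperones, 5 factors of RNA polymerase I transcription, 12 factors of the small subunit, 13 of the large subunit and 4 other nucleolar proteins.

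Polyadenylated RNA was sequenced from 1 cell line in 5 groups. Positive controls (PC, 2 libraries) were kept in medium with 10% fetal bovine serum (FBS), and negative controls (NC, 2 libraries) were starved of serum. The remaining groups were starved in the same way and received resveratrol (RES, a stilbene, 3 libraries), peonidin-3-O-glucoside (POG, an anthocyanin, 3 libraries) or DEG (2 libraries), each compound at 1 µg/mL. The labels did not spell out DEG. Their treatment text listed delphinidin-3-glucoside beside the other compounds. Both controls received the solvent DMSO. Of the 3 samples labelled DEG, 2 had a column of counts, and the third was not analysed here. The labels did not say that libraries of a group came from separate cultures, so p-values measured only the spread between these libraries, which may be technical.

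RNA polymerase I transcribes the large ribosomal RNA precursor in the nucleolus. Small nucleolar ribonucleoproteins (snoRNPs) then guide its chemical modification, box C/D particles by methylation and box H/ACA particles by pseudouridylation, while the small subunit processome and the large subunit assembly factors fold and cleave it and load ribosomal proteins. In growing cells the pathway takes up a large share of biosynthetic capacity, it responds to nutrients and growth factors, and the transcription factor MYC is known for raising many of its genes through the E-box sequence CACGTG.

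Promoter sequences are shown because CACGTG was frequent near the start sites of the 45 genes. RefSeq promoters on build GRCh38.p14, each 300 bases long with 250 before and 50 from the start site onward, were found for 38 of the 45 genes. The motif CACGTG, which reads the same on both strands, was in 14 of these 38 genes (36.8%). It was in 8.77% of the 27305 genes in the promoter table, in 12.3% of the 11712 tested genes with a promoter and in 4 of 63 cytosolic ribosomal protein genes (6.3%). The member promoters had a median GC content of 64.3%, against 58.7% for all promoters. The part of GC content in these shares was not tested. The shares are descriptions with no test, and a match does not show that a factor binds there. Windows of 30 bases follow for 8 of the 14 genes, those with the largest log2 fold changes with serum, in the direction of transcription with the motif in capitals. In the order printed they lie at chr4:4290068-4290097 (minus strand), chr2:28894658-28894687 (plus), chr22:30591880-30591909 (minus), chr17:4555340-4555369 (minus), chr3:51941892-51941921 (minus), chr10:68956604-68956633 (plus), chr3:52686026-52686055 (plus) and chr19:39846356-39846385 (minus).
LYAR: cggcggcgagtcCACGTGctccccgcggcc
WDR43: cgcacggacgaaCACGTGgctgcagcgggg
PES1: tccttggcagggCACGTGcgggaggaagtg
MYBBP1A: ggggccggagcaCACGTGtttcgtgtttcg
RRP9: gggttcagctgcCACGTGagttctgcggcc
DDX21: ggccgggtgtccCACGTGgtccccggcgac
GNL3: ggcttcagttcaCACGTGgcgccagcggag
FBL: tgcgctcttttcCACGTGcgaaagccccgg

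Of 15 motifs in the 14 genes, 14 began within 100 bases of the start of the promoter that held them. The search reached only from 250 bases before the start to 50 from it onward, which limited the positions in advance. Positions of the motif over all promoters were not counted. The exception to the 100 bases was the upstream one of a pair in NOP10, which began 170 bases before the start. Positions are given from the start of the promoter that holds the motif. In LYAR the motif began 64 bases before that start and in DDX21 31 bases before it. In WDR43, PES1, MYBBP1A, GNL3 and FBL it lay within the 50 bases searched from the start onward. For LYAR, DDX21, GNL3 and GAR1 more than 1 promoter is listed, and 1 of them holds the motif. In each of these genes another listed start lies upstream, and the motif lies downstream of that start. The other genes with the motif were NOP14, UTP20, NOP2 and NOC3L.

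The libraries held 38464619 to 51416358 counted reads. Osteoblast identity was checked on markers. COL1A1, COL1A2, SPARC and RUNX2 were expressed in every library. ALPL, BGLAP and SPP1 passed the filter at low CPM (reads of a gene relative to the size of its library). In that order they ran from 3.22 to 6.66, from 0.425 to 2.00 and from 0.954 to 2.34 CPM. SP7 and IBSP fell below the filter. CD3E, a T cell gene, had no reads, and the summed leukocyte markers reached at most 0.581 CPM. The endothelial markers summed to 1.80 to 8.10 CPM. The epithelial markers summed to 181 to 286 CPM, nearly all of it from the keratin gene KRT8, which was higher with serum (262 to 286 CPM in PC, 214 to 216 in NC on the sum). The part of these markers in the results was not tested. CPM values throughout were scaled by TMM, which makes libraries comparable relative to the bulk of the genes. They do not give RNA per cell, and in bulk RNA a smaller number of cells expressing a gene cannot be told apart from less RNA in each cell.

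Levels among the 45 genes were compared as CPM per kilobase of the longest annotated transcript (GENCODE 44), averaged over the libraries. On that scale NPM1, encoding nucleophosmin, was highest at 179 CPM per kilobase (percentile 98.8 of the tested genes), followed by NCL, encoding nucleolin, at 155 and the rRNA methyltransferase gene FBL at 91.1. The lowest were the small subunit processome gene WDR3 at 3.39 and PPAN, a large subunit factor, at 1.37 (percentile 31.9). The 5 highest genes encode chaperones or snoRNP proteins, with NHP2 at 78.0 and NOP10 at 62.9 CPM per kilobase, and the polymerase subunits POLR1A and POLR1B stood lower at 6.07 and 3.62. Some of these counts are uncertain. NPM1 has 49 named pseudogenes that could take or give reads. On the same strand, 4 members (RRS1, NOP2, GRWD1 and PPAN) overlap an exon of another protein-coding gene, which for PPAN includes the read-through gene PPAN-P2RY11. A further limit is that 17 members overlap an exon on the opposite strand while the strand setting of the counting was not stated.

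The first comparison asked how the genes differed between serum-fed and serum-starved osteoblasts. Nearly the whole list was higher with serum, relative to the bulk of the genes. Of 45 genes, 41 were higher in PC than in NC and 0 were lower (edgeR exact test, FDR under 0.05 over 17092 genes), where 21.4% of all tested genes were called higher and 20.9% lower (42.4% in either direction). In 44 of 45 genes both PC libraries lay above both NC libraries, a pattern seen in 32.9% of all tested genes. The median log2 fold change over the 45 genes was 0.34, against -0.01 over all tested genes, and single genes ran from -0.04 to 0.78. Summed over the list, CPM was 4963 and 4849 in the PC libraries and 3842 and 3867 in the NC libraries. The RES, POG and DEG libraries lay between 3769 and 3856 on the same sum. PC had the highest group mean in 44 of the 45 genes.

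**Figure D1:**
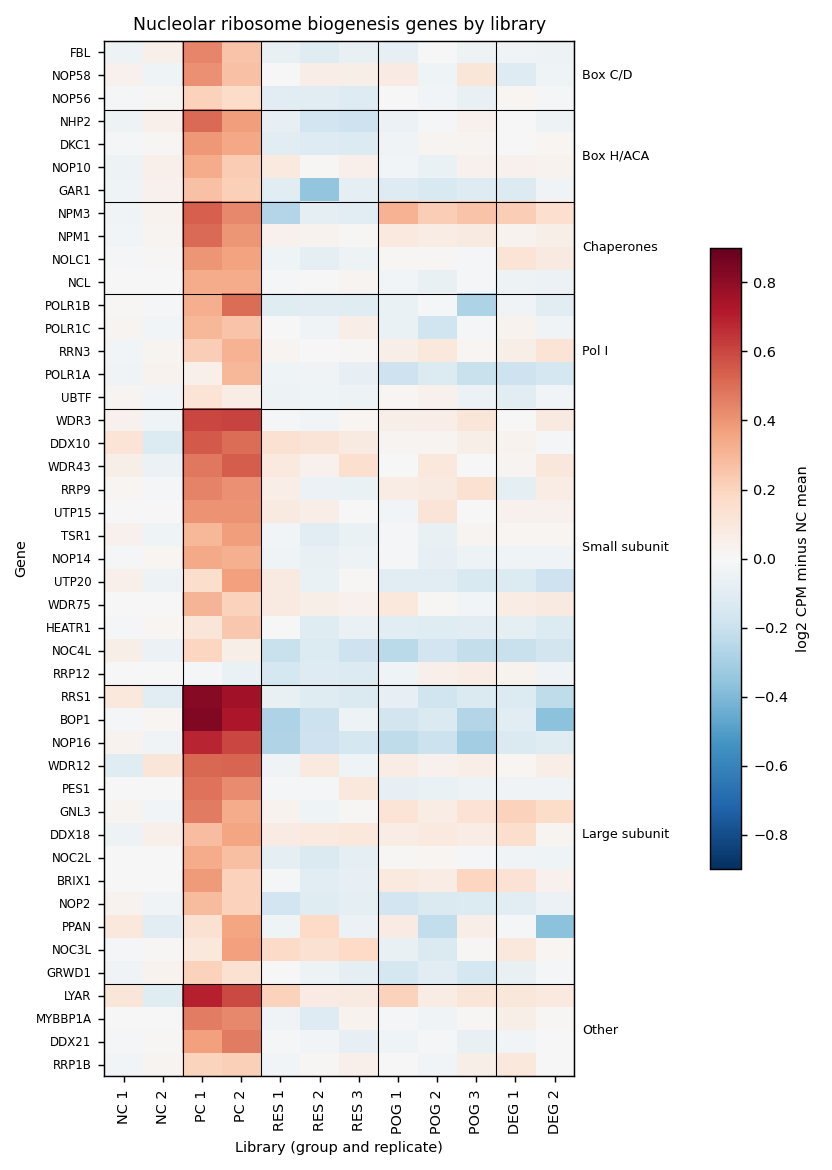
Log2 difference of TMM-scaled CPM from the mean of the 2 negative control libraries for each of the 45 genes (rows, grouped by role) in each of the 12 libraries (columns, by group). The PC columns stand above the negative control in 44 rows, with RRP12 below, whereas the RES, POG and DEG columns scatter around it.

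The largest differences of single genes, in RRS1 and BOP1, were among the large subunit factors. Of these factors 12 of 13 were higher with serum, at a median log2 fold change of 0.32. Among the roles, only the RNA polymerase I factors had a lower median (0.27). RRS1 (chromosome 8, 66429014 to 66430733, hg38), a factor needed to build the 60S particle, was at 21.3 and 20.5 CPM in PC and at 12.96 and 11.34 CPM in NC. The PC libraries of RRS1 lay above all others, at 72.2% over the NC mean (log2 fold change 0.78, SE 0.0813, FDR 1.19e-20, exact test). BOP1 (chromosome 8, 144262045 to 144291438) showed 53.7 and 49.9 CPM in PC and 29.8 and 30.5 CPM in NC, again without overlap (log2 fold change 0.78, SE 0.0710, FDR 1.21e-25). BOP1 works with PES1 and WDR12 in the PeBoW complex, which matures the large subunit rRNAs. The other subunits of that complex rose less, PES1 by 0.46 (95% interval 0.37 to 0.55) and WDR12 by 0.51 (0.38 to 0.64), against an interval of 0.64 to 0.93 for BOP1 on the log2 scale. The order of the 3 subunits is given as measured, with no test between genes. NOP16, a nucleolar factor of the 60S pathway, rose by 0.64 on the log2 scale, and the nucleolar GTPase gene GNL3 (nucleostemin) rose by 0.40. Smaller rises were measured for the helicase gene DDX18 (0.32), NOC2L (0.30), BRIX1 (0.30), the rRNA methyltransferase gene NOP2 (0.25), NOC3L (0.24) and GRWD1 (0.17), a chaperone of a ribosomal protein. PPAN was at 169 and 168 reads in PC and at 129 and 116 reads in NC, a log2 fold change of 0.24 whose interval of -0.10 to 0.58 included 0 (FDR 0.261).

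Among the small subunit factors 10 of 12 were higher, at a median of 0.33. WDR3, of the UTP-B part of the processome, had the largest log2 fold change at 0.60, with 46.6 and 46.8 CPM in PC and 31.5 and 30.0 CPM in NC. The helicase gene DDX10 rose by 0.52. The 4 members of the UTP-A part, which joins the nascent precursor first, did not move by one amount, with WDR43 at 0.51, UTP15 at 0.40, WDR75 at 0.26 and HEATR1 at 0.18. RRP9, a protein of the U3 snoRNP, rose by 0.43, TSR1, which acts on late small subunit precursors, by 0.34, NOP14 by 0.33 and UTP20 by 0.26. The exceptions were NOC4L, the partner of NOP14, at 43.2 and 39.2 CPM in PC against 39.2 and 36.4 CPM in NC (log2 fold change 0.13, FDR 0.0742), and RRP12. RRP12, which escorts the small subunit out of the nucleus, was at 76.6 and 74.2 CPM in PC and at 77.7 and 77.3 CPM in NC. It was the sole member with both PC libraries below both NC libraries, by a margin that did not pass the test (log2 fold change -0.04, SE 0.0438, FDR 0.536).

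**Figure D2:**
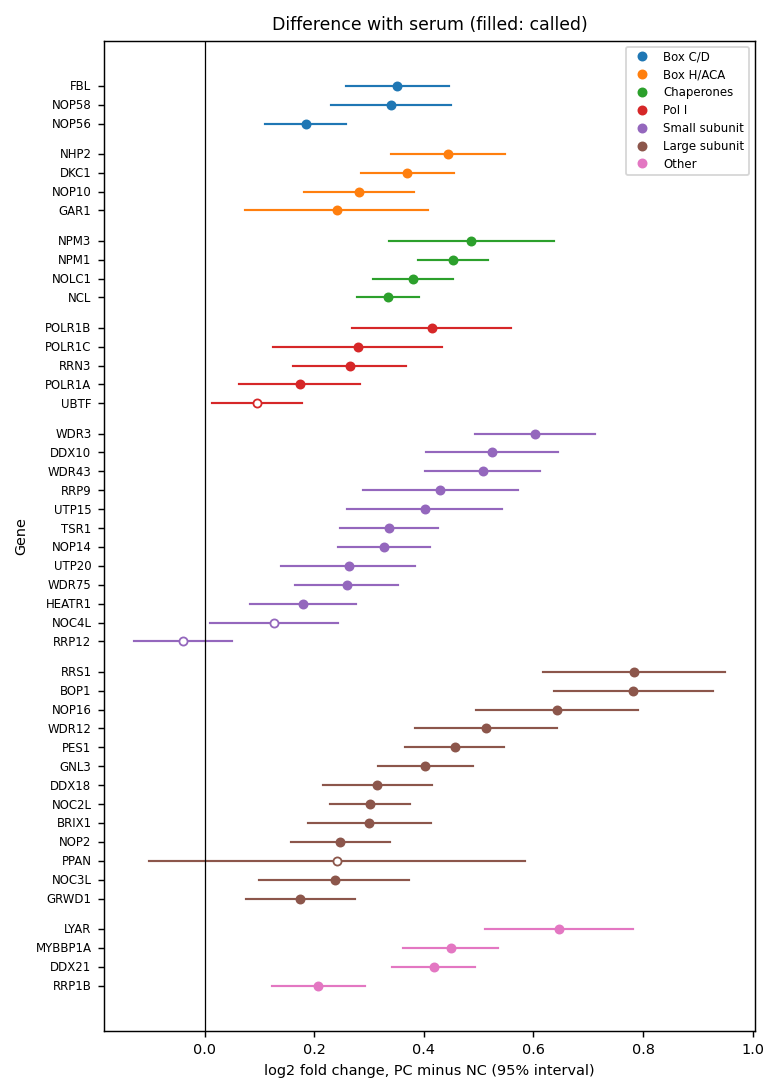
Log2 fold change of PC over NC for the 45 genes, grouped and coloured by role, with filled points for called genes and 95% intervals from edgeR's quasi-likelihood fit. RRS1 and BOP1 lie farthest to the right at 0.78, the median is 0.34, and RRP12 lies at -0.04.

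All 4 chaperones were higher with serum. NPM1 was at 844 and 781 CPM in PC and at 585 and 602 CPM in NC, and NCL at 801 and 804 CPM against 635 and 639 CPM. In both genes the groups were far apart for their spread. Their log2 fold changes were 0.45 and 0.33, beside 0.49 for NPM3, a relative of NPM1, and 0.38 for NOLC1, which binds snoRNPs. The snoRNP proteins also rose in every case, 3 of 3 for box C/D and 4 of 4 for box H/ACA. FBL, the box C/D methyltransferase, was at 170 and 149 CPM in PC against 121 and 129 CPM in NC (log2 fold change 0.35). Of its scaffold partners, NOP58 rose by 0.34 and NOP56 by 0.18. Within box H/ACA particles the pseudouridine synthase gene DKC1 rose by 0.37, NHP2 by 0.44, NOP10 by 0.28 and GAR1 by 0.24.

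RNA polymerase I factors had the lowest median of the roles, 0.27, with 4 of 5 higher. The second largest subunit gene POLR1B was at 33.8 and 38.2 CPM in PC against 27.1 and 26.8 CPM in NC (log2 fold change 0.41). POLR1C, shared with RNA polymerase III, rose by 0.28, and RRN3, the initiation factor through which growth signals reach the polymerase, by 0.27. POLR1A, the largest subunit, rose by 0.17. UBTF, the architectural factor of rDNA chromatin, was at 130 and 126 CPM in PC and 122 and 117 CPM in NC, without overlap and without passing the test (log2 fold change 0.10, FDR 0.0643). The other nucleolar proteins were called in 4 of 4 cases. LYAR, a zinc finger protein of pre-rRNA processing, was at 45.5 and 42.4 CPM in PC and at 30.2 and 26.0 CPM in NC, a rise of 0.65 (SE 0.0661, FDR 2.08e-20, exact test). MYBBP1A rose by 0.45 and the helicase gene DDX21 by 0.42, whereas RRP1B rose by 0.21.

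Of the 41 calls with serum, 37 held under all 12 alternative settings of the analysis. The call of GAR1 was lost without PC replicate 1, without NC replicate 1 and at an FDR of 0.01. The call of POLR1A was lost without PC replicate 2, without NC replicate 1, with plain library totals and with dispersions from the groups compared. NOC3L was lost without PC replicate 2 and GRWD1 without NC replicate 1. Scaling by plain library totals left 40 of 45 genes higher and 0 lower.

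The genes with CACGTG in the promoter had a median log2 fold change with serum of 0.38 (14 genes, 0.24 to 0.65), and those with a promoter but without the motif 0.32 (24 genes, 0.10 to 0.64). The 7 members with no promoter entry, NOP58, NOLC1, RRP12, BOP1, RRS1, DDX18 and RRP1B, enter neither group, and they include the extremes of the list, RRS1 and BOP1 at the top and RRP12 at the bottom. These ranges overlap over most of their length, and no test was made between them. LYAR, with the largest rise among the motif genes, and NOP16, with the largest among those 24, differed by less than either standard error. Another shared feature is position: 9 of the 45 genes hold 28 annotated snoRNAs inside their bounds, among them NOP56, NOP58, GNL3 and NCL. Their median was 0.34, the same as the 0.34 of the 36 genes without one.

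MYC was the regulator that moved most with serum, at 95.9 and 92.0 CPM in PC and at 46.7 and 46.5 CPM in NC (log2 fold change 1.01, SE 0.0497, FDR 2.59e-85, exact test). Among 11 upstream regulators, 4 were lower with serum, and these included MXD1 (-0.40) and MNT (-0.22), which encode proteins that compete with MYC for its partner MAX. The part of MYC in the rise of the nucleolar genes was not tested.

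Other genes of the same pathway were counted from lists of their own. Of 45 further small subunit factors, 33 were higher with serum and 1 lower, at a median of 0.24. The largest rises there were LTV1 (0.63) and BYSL (0.53), both acting on late small subunit precursors, and the gene that fell was DDX47 (-0.74), a helicase near 2 CPM. Of 45 further large subunit factors, 27 were higher and 0 lower (median 0.21), led by PAK1IP1 (0.59), RPF2 (0.57) and EBNA1BP2 (0.57). RPF2 is the partner of RRS1 in recruiting the 5S particle. Of 10 further polymerase I and SL1 subunits 6 were higher and 1 lower, with POLR1G at 0.77, and of 17 exosome and trimming factors 8 were higher and 0 lower, with EXOSC5 at 0.59. Cytosolic ribosomal protein genes were higher in 74 of 79 cases and lower in 0, with a median of 0.32. The background for each of these counts is the 21.4% of tested genes called higher. Of 14 proliferation markers 6 were higher and 2 lower, at a median of 0.02, and their summed CPM was 3923 to 4003 in PC and 3816 to 3838 in NC, without overlap. Their part in the rise of the nucleolar genes was not tested.

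The next comparisons asked whether a compound given to starved cells moved the same genes. RES, POG and DEG were each set against the same 2 NC libraries, so errors in those libraries enter all 3. The differences were small. Without PPAN, whose low count gave wide intervals, the 95% intervals of the other 44 genes stayed within 0.5 of 0 on the log2 scale for each of the 3 compounds.

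With RES, 7 of 45 genes were lower and 0 higher, where 6.21% of tested genes were called lower and 4.94% higher (11.2% either way). The median log2 fold change was -0.04. The RES libraries lay below both NC libraries in 19 genes and above both in 3, against 21.3% and 19.7% of all tested genes. NOP16 was at 13.4, 14.2 and 14.5 CPM with RES and at 16.5 and 15.8 CPM in NC (log2 fold change -0.20, SE 0.0702, FDR 0.0441, exact test). NOC4L was at 32.8, 34.7 and 33.1 CPM against 39.2 and 36.4 CPM (-0.17, SE 0.0532, FDR 0.0221). NHP2 was at 55.9, 52.2 and 51.7 CPM against 57.2 and 60.8 CPM (-0.15, SE 0.0480, FDR 0.0356). In each of the 3 the groups did not overlap. The others were RRP12 (-0.13), NOP2 (-0.12), NOC2L (-0.10) and NOP56 (-0.10). None of the 7 calls held under all 13 alternatives. With plain library totals 0 genes were lower and 1 higher. Without RES replicate 1, 1 of the 7 calls was left, and without RES replicate 2, 2 were left. Without RES replicate 3, 2 genes were called lower, of which 1 was among the 7.

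With POG, 5 genes were lower and 1 higher, where 8.57% and 5.93% of tested genes were called (14.5% either way), and the median was -0.01. POG libraries lay below both NC libraries in 13 genes and above both in 7, against 22.5% and 21.6% of tested genes. NPM3 was the gene that rose, with 21.2, 20.0 and 20.5 CPM against 16.8 and 17.5 CPM (log2 fold change 0.26, SE 0.0687, FDR 0.00253, exact test). NOP16 was again lower, at 13.78, 14.15 and 13.02 CPM against 16.5 and 15.8 CPM (-0.24, SE 0.0703, FDR 0.00836). NOC4L stood at 32.0, 33.6 and 32.5 CPM against 39.2 and 36.4 CPM (-0.21, SE 0.0532, FDR 0.00217). POLR1A was at 68.9, 72.0 and 68.3 CPM against 76.8 and 80.0 CPM (-0.17, SE 0.0497, FDR 0.0121). No POG library overlapped an NC library in any of the 4. NOP2 (-0.14) and GRWD1 (-0.14) were the remaining calls. None of the 6 calls held under all 13 alternatives. NPM3 and NOC4L were lost only without NC replicate 1, a fit with 1 NC library in which most of the 6 calls were lost. NOP16 was kept in 11 alternatives, NOP2 in 10, POLR1A in 9 and GRWD1 in 5. Without POG replicate 1 or 3 there were 3 calls, and with plain library totals 4 genes were higher and 4 lower.

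With DEG, 3 genes were lower and 1 higher, where 6.11% and 3.52% of tested genes were called (9.63% either way), and the median was -0.00080. DEG libraries lay below both NC libraries in 13 genes and above both in 10, against 26.4% and 25.4% of tested genes. GNL3 rose, at 134 and 130 CPM against 118 and 114 CPM (log2 fold change 0.19, SE 0.0428, FDR 0.00149, exact test). BOP1 was lower at 28.1 and 23.4 CPM against 29.8 and 30.5 CPM (-0.23, SE 0.0765, FDR 0.0338). NOC4L was at 32.9 and 33.6 CPM against 39.2 and 36.4 CPM (-0.18, SE 0.0592, FDR 0.0315). POLR1A was at 68.8 and 70.3 CPM against 76.8 and 80.0 CPM (-0.17, SE 0.0551, FDR 0.0315). In all 4 genes the groups stood apart, although in BOP1 the gap between the groups was smaller than that between its DEG libraries. None of the 4 calls held under all 12 alternatives. The difference in BOP1 was -0.37 without DEG replicate 1 and -0.10 without DEG replicate 2 (FDR 0.00204 and 0.664, exact test). Leaving out any 1 of the 4 libraries left 1 call, and with plain library totals 2 genes were higher and 0 lower.

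**Figure D3:**
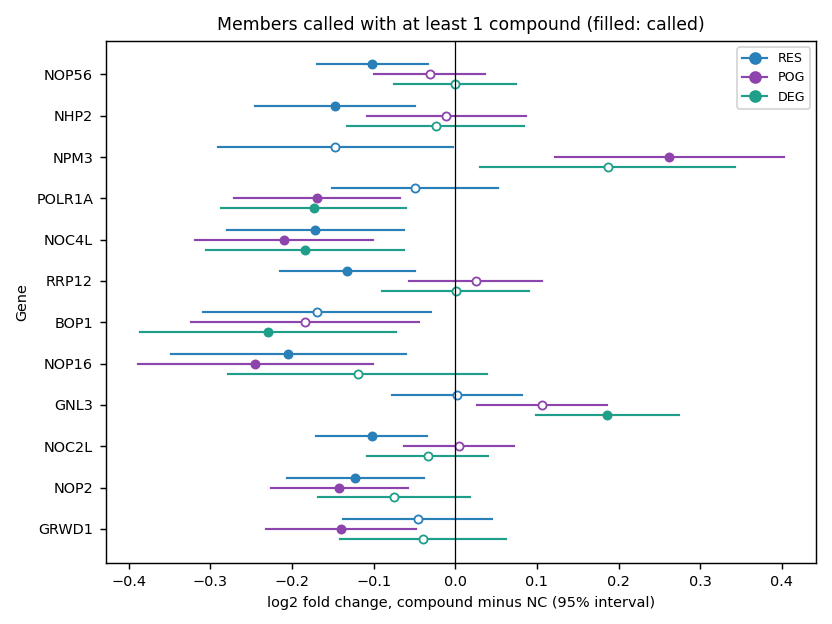
Log2 fold change over NC with 95% intervals for the members called in at least 1 comparison of RES, POG or DEG with NC (filled points where called). All values lie between -0.24 and 0.26, and NOC4L lies below 0 for all 3 compounds.

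The calls of the 4 comparisons with NC are set side by side here. No difference between them was tested, and none of the calls with a compound held under all alternatives. With RES 15.6% of members were called, against 11.2% of all tested genes. The shares of members called with POG (13.3%) and DEG (8.89%) were near those of all tested genes. NOC4L, not called with serum, was called lower with all 3 compounds, and without NC replicate 1 it was called with none of them (FDR 0.421, 0.182 and 0.414 for RES, POG and DEG, exact test). NOP2 and NOP16 were higher with serum and lower with RES and with POG, and POLR1A was higher with serum and lower with POG and with DEG. NPM3 was higher with serum and with POG, GNL3 with serum and with DEG, and BOP1 was higher with serum and lower with DEG. Of the 45 genes, 31 were called with serum and with no compound, and UBTF and PPAN were called in none of the 4 comparisons. The shares of all tested genes with these patterns were not counted, so the patterns do not set the list apart. MYC itself was at 42.5, 41.7 and 40.5 CPM with RES, below both NC libraries (-0.16, FDR 0.0140, exact test), at -0.13 with POG (FDR 0.0510) and at -0.11 with DEG (FDR 0.229). Ribosomal protein genes were lower with RES in 13 of 79 cases (16.5%), among them RPSA (-0.20), and higher in 0. Of all tested genes 6.21% were called lower with RES and 4.94% higher. With POG 4 and with DEG 3 of the 79 were higher and 0 lower, shares close to the 5.93% and 3.52% of all tested genes called higher.

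The compounds were then compared with each other, in 3 pairs at the same labelled dose. Each p-value was adjusted over the tested genes of its own pair. Between POG and RES, 7 of 45 genes were higher with POG and 2 lower, where 13.7% and 14.1% of all tested genes were called (27.9% either way). NPM3 showed the largest difference, at 21.2, 20.0 and 20.5 CPM with POG and at 14.2, 16.2 and 16.0 CPM with RES, 32.8% higher and without overlap (log2 fold change 0.41, SE 0.0608, FDR 8.34e-10, exact test). BRIX1 was at 52.8, 52.2 and 56.7 CPM with POG against 49.2, 46.5 and 47.3 CPM with RES (0.18, SE 0.0452, FDR 0.00114). NOC3L went the other way, at 31.1, 29.7 and 32.7 CPM with POG against 36.7, 35.8 and 36.9 CPM with RES (-0.23, SE 0.0546, FDR 4.89e-04). POLR1A was also lower with POG, at 68.9, 72.0 and 68.3 CPM against 76.3, 76.7 and 74.4 CPM (-0.12, SE 0.0443, FDR 0.0371). The groups did not overlap in these 4 genes. Over the list, POG libraries lay above all RES libraries in 12 genes and below them in 7, against 21.2% and 20.9% of tested genes. RRP12 (0.16), NHP2 (0.14), DKC1 (0.12), NOC2L (0.11) and GNL3 (0.10) were the other genes higher with POG. The calls of NPM3, BRIX1, RRP12, DKC1 and NOC3L held under all 14 alternatives.

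Between DEG and RES, 7 genes were higher with DEG and 1 lower, where 10.3% and 10.8% of tested genes were called (21.2% either way). NPM3 was at 20.0 and 19.1 CPM with DEG, above its 3 RES libraries (log2 fold change 0.33, SE 0.0692, FDR 4.12e-05, exact test). GNL3 was at 134 and 130 CPM with DEG and at 119, 113 and 117 CPM with RES (0.18, SE 0.0387, FDR 1.54e-04). UTP20, a small subunit factor, was lower with DEG at 39.1 and 37.4 CPM against 44.9, 40.7 and 42.8 CPM (-0.16, SE 0.0564, FDR 0.0278). None of these 3 genes overlapped between the groups. Over the list, DEG libraries lay above all RES libraries in 15 genes and below them in 7, against 24.2% of tested genes each way. NOLC1 (0.16), BRIX1 (0.15), RRP12 (0.13), DKC1 (0.12) and NOP56 (0.10) were higher as well. The calls of NPM3, NOLC1 and GNL3 held under all 13 alternatives. Without RES replicate 3 there were 4 calls, and without DEG replicate 1 there were 3.

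Both sets of libraries also stood above RES in ribosomal protein genes, 37 of 79 higher with POG and 45 of 79 with DEG, with 0 lower in either. Of all tested genes, 13.7% were called higher with POG than with RES and 14.1% lower. For DEG against RES these shares were 10.3% and 10.8%. Proliferation markers also differed, in both directions. Of 14, 8 were higher with POG than with RES and 2 lower, 6 were higher with DEG and 2 lower, and their summed CPM was 3639 to 3710 with RES, 4035 to 4095 with POG and 3992 to 4006 with DEG. The part of proliferation in the differences between compounds was not tested.

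Between DEG and POG no member was called by the exact test, the quasi-likelihood test or DESeq2, where 1.05% of tested genes were called, 0.550% higher and 0.497% lower. At an unadjusted p under 0.05 the exact test gave 3 of 45 genes, 2 higher and 1 lower with DEG (6.67%, against 10.7% of all tested genes). With dispersions from these libraries alone 2 of 45 genes were called, where 4.90% of tested genes were. Log2 fold changes ran from -0.16 for PPAN to 0.13 for NOP16, and without PPAN the 95% intervals of the other 44 genes lay between -0.24 and 0.27. The interval of each gene holds the differences that these libraries did not exclude, so the lack of calls does not show that both compounds act alike.

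**Figure D4:**
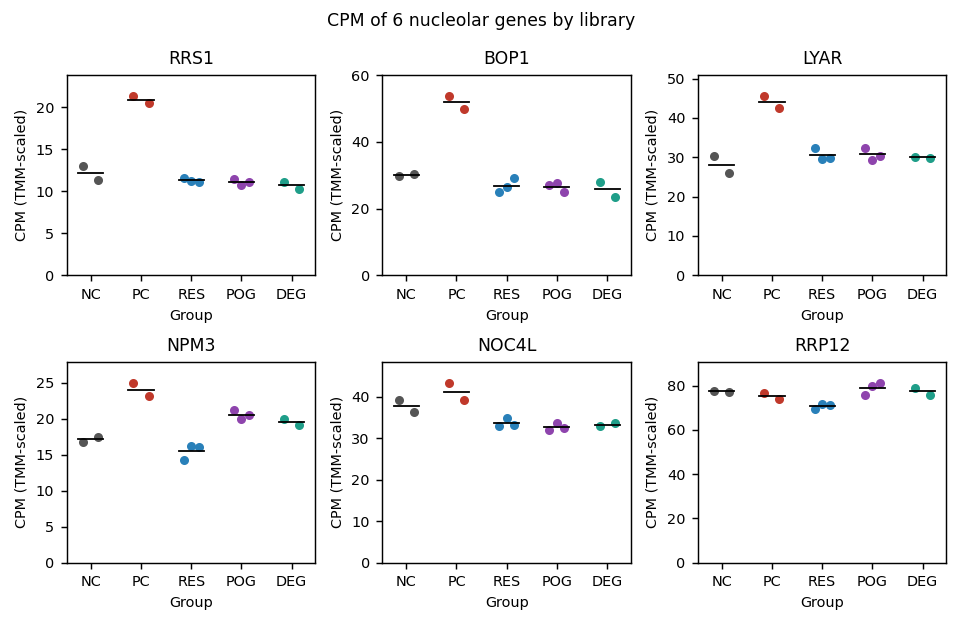
TMM-scaled CPM of 6 members in each library by group, with a dot per library and a bar at the group mean. RRS1, BOP1 and LYAR stand highest in PC, NPM3 stands higher in POG and DEG than in RES, NOC4L is lower in all 3 compound groups than in NC, and RRP12 is lowest in RES.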

How the data were processed

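A single table of unnormalized read counts for Ensembl genes, with 12 library columns, was deposited. Per their methods, reads from polyA-selected libraries (NuGen Universal Plus kit, NovaSeq) were aligned to hg38 with STAR, BWA MEM also being named, and counted with featureCounts. Versions, strand setting and the treatment of multi-mapped reads are not given in the sources used here. Replicate numbers followed accession order and served as names only.

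Genes were filtered with filterByExpr by group, which kept 99.967% of the reads. TMM factors scaled the libraries, all 12 of which shared one set of dispersions (common biological coefficient of variation 3.21%), and groups were compared with the exact test of edgeR 4.0.16 in R 4.3.3, the test the study names, with Benjamini-Hochberg adjustment over 17092 genes. Standard errors and 95% intervals came from edgeR's quasi-likelihood fit. Alternatives were the quasi-likelihood test, DESeq2 1.42.0, other size factors, plain library totals, other filters, dispersions from the compared groups, an FDR of 0.01 and leaving out each library. Coordinates and transcript lengths came from GENCODE 44 and promoters from RefSeq.

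The 45 genes, the other gene lists and the motif were chosen with earlier results of these data known. Every member could be named. Full values were given for the 3 largest rises and the 3 largest falls among called members against NC and for the largest 2 each way between compounds, and from each other list at most 3 called genes of largest absolute log2 fold change were named in a comparison, with MYC named whatever its values.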

Additional observations from a re-analysis of the deposited data

How the results depend on the processing

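The count of genes called with serum ranged from 39 to 41 when a library was left out, and its median log2 fold change was 0.29 with plain library totals and 0.34 to 0.36 with a library left out. For RES against NC, 3 genes were called by DESeq2, 1 (higher) with plain library totals, 0 with no filter on low counts and 0 at an FDR of 0.01. The exact test called 7, all lower. With a RES library left out 1 to 2 genes were called, not all of them among the 7. Its median was -0.0090 with plain library totals and -0.048 to -0.022 with a library left out. For POG against NC, 11 genes were called with dispersions from the groups compared, 3 at an FDR of 0.01 and 2 to 6 with a library left out, and the median turned to 0.013 with plain library totals (-0.023 to -0.0046 with a library left out). For DEG against NC, 1 gene was called by DESeq2, 2 with plain library totals, 1 at an FDR of 0.01 and 1 with each library left out. Its median of -0.00080 turned to 0.0012 with DESeq2, 0.0011 with DESeq2 size factors, 0.018 with plain library totals and 0.00070 with no filter (-0.019 to -0.0050 with a library left out). Between POG and RES, 14 genes were called with dispersions from the groups compared and 6 to 9 with a library left out, and the median of 0.00021 turned to -0.0032 with plain library totals and to -0.0049 with a mean of at least 1 CPM, running from -0.0050 to 0.020 with a library left out (-0.0050 without RES replicate 2 and -0.0020 without POG replicate 1). Between DEG and RES, 3 genes were called at an FDR of 0.01 and 3 to 6 with a library left out, and the median was 0.0093 to 0.027. Between DEG and POG, 2 genes were called with dispersions from the groups compared, and the median was 0.0030 to 0.018 with a library left out. The causes were not tested.

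Of 270 values of the 21 gene and comparison pairs given with full statistics, 201 kept their direction and call under the alternatives, 69 kept the direction and lost the call, and 0 changed direction. No paired analysis was possible because the labels number no replicates, and numbers given in accession order pair nothing. Groups of 2 or 3 libraries of 1 cell line limit every comparison. PPAN, with 116 to 169 reads in the control libraries, is the member most limited by depth.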

Other observations

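Of 116 tested genes of the pathway outside the 45, 8 were called with RES (6.90%), 11 with POG (9.48%) and 9 with DEG (7.76%) against NC, below the 11.2%, 14.5% and 9.63% of all tested genes. Examples among the called genes follow. TAF1D, a subunit of the SL1 factor that recruits RNA polymerase I, was higher with POG (log2 fold change 0.25, FDR 6.18e-08) and with DEG (0.31, FDR 3.08e-10) than in NC by edgeR's exact test, whereas TAF1C, another SL1 subunit, was lower with RES (-0.16, FDR 0.00224). NOL9, a kinase of rRNA processing, was lower with RES (-0.29), POG (-0.26) and DEG (-0.26). The exosome subunit gene EXOSC4 was lower with POG (-0.34) and DEG (-0.31), and DDX52, a helicase of the small subunit pathway, was lower with both (-0.23 and -0.21). NLE1, a factor of the large subunit, was lower with RES than in NC (-0.26) and higher with POG than with RES (0.29). These comparisons share the NC or the RES libraries, so their errors are shared as well. No difference between the effects of 2 compounds was tested beyond the direct comparisons given.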
